A study of Mus musculus with 16 samples.

Results

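Amino acid transporters of the plasma membrane are described here through 10 genes, Slc3a2, Slc7a5, Slc7a6, Slc7a11, Slc7a1, Slc1a5, Slc1a4, Slc38a2, Slc38a1 and Slc6a9, of the 22392 gene symbols that were counted. The genes were chosen by name, and each was read at its transcript with the largest sum over all 16 libraries. Ribo-seq, which counts the mRNA fragments covered by translating ribosomes (footprints), and RNA-seq of the same lysates were performed in Hepa1-6 cells, a mouse hepatoma line. The question was whether deletion of exon 5 of Eef1d, a subunit gene of the elongation factor complex EEF1B, alters translation. WT cells and 3 exon 5 KO clones (KO1, KO2 and KO3) were each measured in 2 replicates per assay. KO1 and KO2 were made with the same pair of guides (S1 and S4) and KO3 with another pair (S2 and S4). Each KO line is 1 clone grown from a single cell, so that a difference between a clone and WT cells can come from the deletion or from the clone itself, and these cannot be told apart within 1 line. The replicates carry numbers, and the study's methods call the Ribo-seq libraries biological replicates. Nothing in the labels says that they were separate cultures, so that p-values measure only the spread between these libraries.

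Cells take up amino acids through carriers that differ in substrate and driving force. Sodium-coupled carriers of the SLC38 and SLC6 families concentrate small neutral amino acids. Exchangers trade an amino acid inside the cell for another outside, such as glutamine for leucine or glutamate for cystine. Several of these genes are known targets of the transcription factor ATF4, which is made when amino acids run short, and SLC7A11 is also a known target of NRF2 in the response to oxidants. Proliferating hepatoma cells are known to rely on LAT1 and ASCT2, which normal hepatocytes hold at low levels.

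Summed over the transcripts, RNA-seq libraries held 24726706 to 30748268 counts. Ribo-seq libraries held 2604223 to 11147904, the lowest and the highest both in KO1. Reads at exon 5 checked the labels: the count on the Eef1d transcript with exon 5 was 116% of the count on the transcript without it in both WT RNA-seq libraries, and 89.8% to 92.6% in the 6 KO libraries, where reads outside exon 5 count on both transcripts. Of 10 hepatocyte markers, 6 had at least 10 counts in both RNA-seq libraries of every line, while Ttr, Apoa1, Ahsg and Serpina1a were too low to test. The summed level of the 10 markers was 1152 to 1233 in WT cells, 440 to 444 in KO1, 879 to 955 in KO2 and 1702 to 1802 in KO3. The sum does not stand for each marker. Of the 6 tested, RNA rose for 0 and fell for 5 in KO1 (edgeR, adjusted p under 0.05). It rose for 1 and fell for 3 in KO2, and rose for 3 and fell for 3 in KO3. Of all genes, 46.7%, 19.9% and 44% were called in these clones. The 6 fibroblast markers, led by Dcn, summed to 813 to 856 in WT cells, 715 to 774 in KO1, 640 to 763 in KO2 and 926 to 951 in KO3. Of those tested, RNA rose for 1 and fell for 1 of 3 in KO1. It rose for 0 and fell for 2 of 3 in KO2, and rose for 2 and fell for 1 of 4 in KO3. The 6 leukocyte markers summed to at most 7.69 and the 5 endothelial markers to at most 1.09 in any library, with Cd3e and Tek at 0 in all 4 lines. The marker levels thus moved with the clone, and their part in the transporter results was not tested. In these bulk samples, fewer cells of a type and less RNA per cell cannot be told apart.

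All 10 transporter genes were expressed in WT cells, over a wide range. Levels are counts per codon of the counted coding sequence, scaled to a total of 1000000 in each library, so that genes of different length can be compared. The highest RNA level was that of Slc38a2, the sodium-coupled neutral amino acid carrier SNAT2, with 207 and 202 in the 2 WT libraries. Next came Slc3a2 (97.1 and 97.1), Slc7a5 (85 and 79.2), Slc7a1 (74.4 and 66.5) and Slc1a5 (58.5 and 50). Slc7a6 (31.8 and 35.7), Slc7a11 (22.3 and 19.7) and Slc1a4 (15.3 and 14.7) were lower, and Slc38a1 (5.9 and 6.44) and Slc6a9 (3.86 and 3.42) were the lowest. No neighbours in this order overlapped between their 2 WT replicates. The mean RNA level of Slc38a2 exceeded 94.8% of the 14487 genes with RNA counts in WT cells, and that of Slc6a9 exceeded 32.4%.

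Footprint levels followed nearly the same order. Slc38a2 had 241 in both WT libraries and Slc6a9 3.46 and 1.72. Slc7a5, with 62.7 and 64.4, stood below Slc7a1 and Slc1a5 rather than above them. Slc1a4 (27.9 and 25.2) and Slc7a11 (28.6 and 23.1) overlapped, as did Slc38a1 (3.96 and 2.93) and Slc6a9. The log2 ratio of the footprint level to the RNA level, given here as the translation efficiency (TE) level, was highest in Slc1a4, at 0.82 ± 0.0566 (SD, n = 2), which exceeded 96.8% of 9634 genes with enough counts. It was lowest in Slc38a1, at -0.86 ± 0.396 (SD, n = 2). The median TE level of the 10 genes in WT cells was 0.20, beside -0.44 for the 9634 genes.

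**Figure D1:**
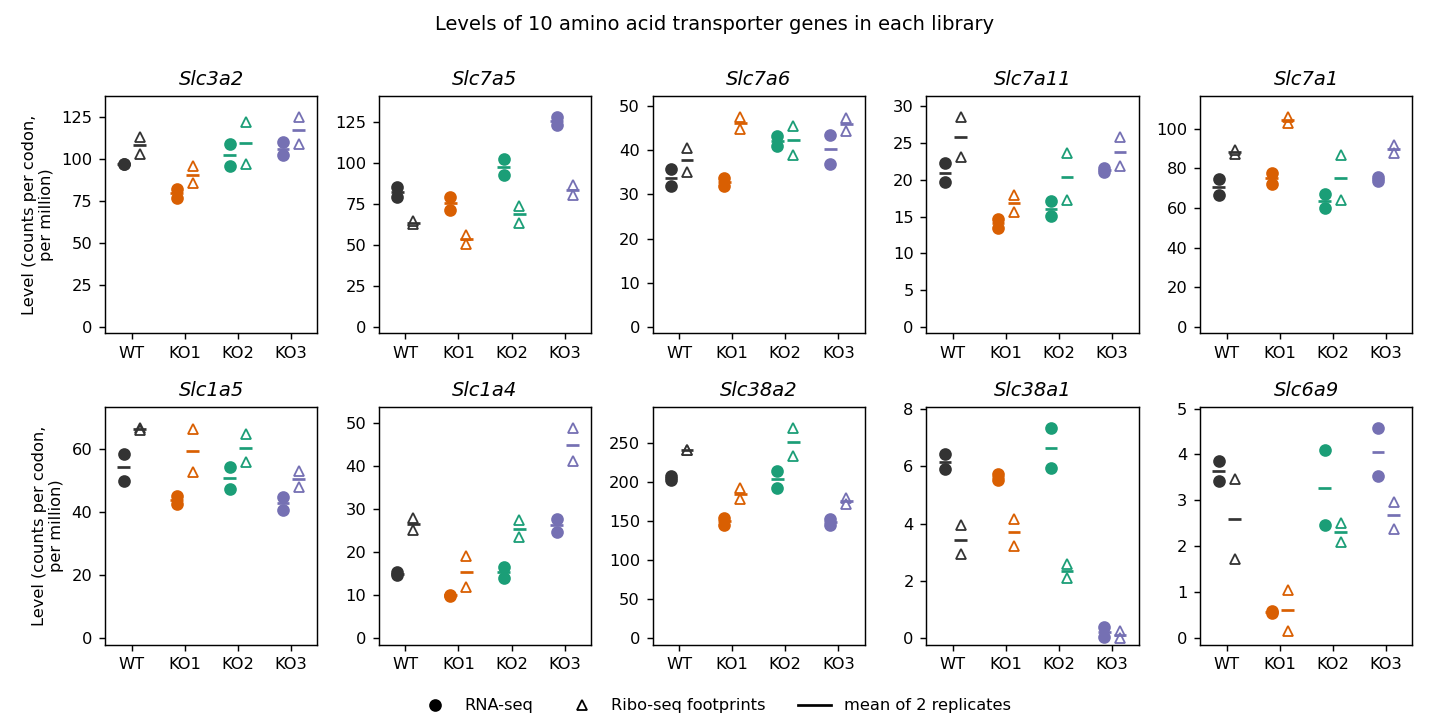
Levels of the 10 transporter genes (counts per codon, scaled to 1000000 per library) in WT, KO1, KO2 and KO3 cells, with filled circles for RNA-seq libraries, open triangles for Ribo-seq libraries and bars for the mean of 2 replicates. Slc38a1 lies near 0 in the KO3 libraries and Slc6a9 is lowest in the KO1 libraries, while Slc1a4 is lowest in KO1 and highest in KO3.

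The comparison of each clone with WT cells gave different sets of changed transporter genes. All 10 genes passed the filter on low counts in every comparison, and calls are edgeR quasi-likelihood tests with a Benjamini-Hochberg adjusted p under 0.05 over all transcripts. In KO1, RNA fell for 6 of the 10 genes and rose for 0, while 46.7% of the 11515 genes tested were called, 22.9% higher and 23.7% lower. In KO2, RNA rose for 2 and fell for 1, beside 19.9% of all genes called (10.9% higher and 8.97% lower). In KO3, RNA rose for 4 and fell for 3, beside 44% of all genes called (21.7% higher and 22.3% lower). The counts were somewhat above these backgrounds, and no test was run over the 10 genes.

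On the log2 scale, the median RNA change of the 10 genes in KO1, KO2 and KO3 was -0.26, -0.00 and 0.17, beside 0.015, -0.007 and -0.006 for all genes. In KO1, 4 of the 10 genes did not pass the test in RNA, and the most abundant carrier gene was among those that fell. RNA was called in at least 1 clone for 9 of 10 genes, beside 70.7% of all genes, and the exception was Slc7a1. With the replicate number as a block, without WT replicate 1 or without KO1 replicate 2, its RNA change in KO1 was called as well (edgeR adjusted p = 0.0327, 0.0396 and 0.0347). It was called in opposite directions in 2 clones for 2 genes, Slc3a2 and Slc1a4, beside 19.6% of all genes. No gene of the 10 was called in all 3 clones, where 7.64% of all genes were.

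The 3 clones differed from each other in their RNA change from WT cells (edgeR test of unequal clones) for 9 of 10 genes, all but Slc1a5, beside 74.7% of all genes. For footprints they differed for 9 of 10, all but Slc7a6, beside 58.9% of all genes. A clone-to-clone difference was therefore the usual pattern among these genes and across the transcriptome. The test of the mean over the clones measures the spread between libraries of a line, not between clones, so 1 clone can carry a call. Slc38a1 had a mean RNA change of -1.56, from -0.09, 0.09 and -4.67 in KO1, KO2 and KO3. For Slc6a9 the mean was -0.86, from -2.61, -0.18 and 0.22. In the mean over the clones, RNA was called for 6 of 10 genes (1 higher and 5 lower) beside 18.6% of all genes, and without WT replicate 1 for 3. Footprints were called in that mean for 4 genes, Slc7a11, Slc38a2, Slc38a1 and Slc6a9, beside 9.05% of all genes, and without WT replicate 1 for 0.

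Footprints changed for 6 of the 10 genes in KO1 (1 higher and 5 lower), beside 26.5% of all genes called, 12.4% higher and 14.1% lower. In KO3 they changed for 6 (3 higher and 3 lower), beside 29% of all genes, 13.2% higher and 15.8% lower. In KO2 edgeR called 0 of the 10 genes, beside 11% of all genes, 5.83% higher and 5.15% lower. There, 2 of the 10 genes had an unadjusted p under 0.05 by edgeR, beside 2526 of 10370 genes, and DESeq2 also called 0 of the 10. RNA and footprints were both called in the same direction for 5 genes in KO1, 0 in KO2 and 6 in KO3, beside 23.1%, 8.55% and 24.7% of all genes. Slc1a4 footprints were called in opposite directions in KO1 and KO3, as 8.82% of all genes were in some pair of clones. The footprint count in KO1 depended on single libraries. Without WT replicate 1 there was 1 call, without KO1 replicate 1 there were 3, and DESeq2 called 1 of the 9 genes that it gave an adjusted p.

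The heterodimeric carriers pair a heavy chain, CD98hc, with 1 of several light chains. Slc3a2 encodes the heavy chain, which brings the light chains to the cell surface. Its RNA level was 97.1 and 97.1 in WT cells, 82.1 and 76.7 in KO1, 109 and 95.4 in KO2, with 110 and 102 in KO3. Both KO1 libraries were below, and both KO3 libraries above, the WT libraries, while KO2 lay on both sides. RNA fell in KO1 by 0.25 ± 0.06 on the log2 scale (edgeR adjusted p = 0.000563) and rose in KO3 by 0.19 ± 0.0593 (edgeR adjusted p = 0.00883; errors of log2 changes are standard errors). The KO3 call was lost without WT replicate 1, without WT replicate 2 or without KO3 replicate 1, where the adjusted p reached at most 0.116. Footprints of Slc3a2 fell in KO1 (-0.22 ± 0.0822, edgeR adjusted p = 0.0345) and were 0.17 ± 0.0734 in KO3 (edgeR adjusted p = 0.0734). The KO1 footprint call was lost under 5 of 13 alternatives.

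Slc7a5 encodes LAT1, the light chain that exchanges intracellular glutamine for leucine and other large neutral amino acids. The RNA level of Slc7a5 was 85 and 79.2 in WT cells, 79.2 and 71.1 in KO1, 102 and 92.7 in KO2, with 128 and 123 in KO3. Both KO2 and both KO3 libraries were above WT, with KO3 the highest, and KO1 met WT at its upper end. The RNA change in KO3 was 0.67 ± 0.0611 (1.59-fold, edgeR adjusted p = 2.52e-13) and that of footprints 0.46 ± 0.0818 (edgeR adjusted p = 1.24e-05). Both calls were kept under all 12 and 13 alternatives. In KO2 the RNA change of 0.24 ± 0.0671 (edgeR adjusted p = 0.0163) was lost under 4 of 12 alternatives, DESeq2 among them. Footprint levels of Slc7a5 were 62.7 and 64.4 in WT cells, 56.1 and 50.5 in KO1, 73.7 and 63.4 in KO2, with 86.2 and 80.6 in KO3, so that KO3 was the highest there as well.

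Slc7a6 encodes y+LAT2, a light chain that exports cationic amino acids in exchange for neutral ones and sodium. RNA levels of Slc7a6 were 31.8 and 35.7 in WT cells, 33.8 and 31.9 in KO1, 43.2 and 41 in KO2, with 36.9 and 43.5 in KO3. KO2 and KO3 did not overlap with WT, and KO1 did. RNA rose by 0.31 ± 0.0877 in KO2 (edgeR adjusted p = 0.0168) and by 0.31 ± 0.087 in KO3 (edgeR adjusted p = 0.00378), and each call was lost under 3 of 12 alternatives. DESeq2 and the fit without WT replicate 1 were among these for KO2, and the fits without WT replicate 1 and without KO3 replicate 2 for KO3. Footprints rose in KO3 (0.33 ± 0.102, edgeR adjusted p = 0.013), a call that 5 of 13 alternatives lost.

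Slc7a11 encodes xCT, the light chain that imports cystine in exchange for glutamate and so feeds glutathione synthesis. In WT cells its RNA level was 22.3 and 19.7, compared with 13.5 and 14.7 in KO1, 17.1 and 15.1 in KO2, with 21.1 and 21.6 in KO3. KO1 and KO2 lay below WT without overlap and KO3 lay within the WT range. RNA fell by 0.54 ± 0.115 in KO1 (0.689 times WT, edgeR adjusted p = 0.000112), which all 12 alternatives kept. The fall of 0.39 ± 0.115 in KO2 (edgeR adjusted p = 0.02) was lost with DESeq2, without WT replicate 1 and without KO2 replicate 2. Footprints fell by 0.69 ± 0.15 in KO1 (edgeR adjusted p = 0.000122), a call that 4 of 13 alternatives lost, DESeq2 and the fit without KO1 replicate 1 among them. In KO3 the RNA change was 0.08 ± 0.103 (edgeR adjusted p = 0.568).

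For these 3 light chains, the balance of light to heavy chain mRNA was higher in KO3. Slc7a7, which encodes the light chain y+LAT1 and whose mean RNA level in WT, KO1, KO2 and KO3 was 14.8, 10.6, 13.5 and 18.8, is not in the sum. The summed RNA level of Slc7a5, Slc7a6 and Slc7a11 was 1.43 and 1.39 times that of Slc3a2 in the WT libraries, 1.54 and 1.54 in KO1, 1.49 and 1.56 in KO2, with 1.68 and 1.84 in KO3. Both libraries of each clone were above both WT libraries, most in KO3, and this ratio was not tested. Slc7a5 and Slc7a6 lie on chromosome 8, where the median RNA change in KO3 was 0.21. In KO3 the median was -0.11 on chromosome 19, where Slc3a2 lies, and -0.06 on chromosome 3, where Slc7a11 lies. The part of these chromosome differences in the ratio was not tested. In footprints it was 1.17 and 1.19 in WT cells, 1.22 and 1.36 in KO1, 1.17 and 1.24 in KO2, with 1.27 and 1.35 in KO3. Slc7a5 made up 61.1% and 58.8% of the light chain sum in WT RNA and 68.8% and 65.4% in KO3 RNA.

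Slc7a1 encodes CAT1, the main carrier for arginine and lysine in many dividing cells. Its RNA level was 74.4 and 66.5 in WT cells, 77.5 and 72.2 in KO1, 67.2 and 59.8 in KO2, with 75.7 and 73.5 in KO3, and each clone overlapped with WT. The RNA change was 0.13 ± 0.0637 in KO1 (edgeR adjusted p = 0.101), -0.16 ± 0.0721 in KO2 (edgeR adjusted p = 0.14) and 0.14 ± 0.0646 in KO3 (edgeR adjusted p = 0.0833). The footprint level was 87.3 and 89.1 in WT cells and 103 and 106 in KO1, where footprints rose by 0.25 ± 0.0797 (edgeR adjusted p = 0.0151). The 2 KO1 libraries were above the WT libraries, but the call was lost under 5 of 13 alternatives, among them DESeq2 and the fits without WT replicate 1, WT replicate 2 or KO1 replicate 1.

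Slc1a5 encodes ASCT2, an exchanger of glutamine and other neutral amino acids. For Slc1a5 the RNA level was 58.5 and 50 in WT cells, 45.1 and 42.6 in KO1, 54.2 and 47.2 in KO2, with 44.9 and 40.6 in KO3. KO1 and KO3 were below WT without overlap. RNA fell by 0.26 ± 0.0762 in KO1 (edgeR adjusted p = 0.004) and by 0.28 ± 0.0783 in KO3 (edgeR adjusted p = 0.00297). The KO1 call was lost with DESeq2 and without WT replicate 1, and the KO3 call without WT replicate 1 or without KO3 replicate 2. Relative to the other genes of its chromosome, the Slc1a5 RNA change in KO1 was 0.17 (edgeR adjusted p = 0.0916), opposite in sign. Footprints of Slc1a5 fell in KO3 (-0.33 ± 0.0859, edgeR adjusted p = 0.00252), which DESeq2 and the fit without WT replicate 1 lost, and were -0.08 ± 0.0943 in KO1.

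Slc1a4 encodes ASCT1, an exchanger of alanine, serine, cysteine and threonine. Its RNA level was 15.3 and 14.7 in WT cells, 10 and 9.88 in KO1, 16.6 and 14.1 in KO2, with 24.8 and 27.7 in KO3. KO1 was below and KO3 above WT, both without overlap, and KO2 lay on both sides of WT. RNA fell by 0.55 ± 0.128 in KO1 (0.682 times WT, edgeR adjusted p = 0.000336) and rose by 0.86 ± 0.103 in KO3 (1.82-fold, edgeR adjusted p = 8.93e-10). All 12 alternatives kept both calls. The test for unequal clones gave an adjusted p of 2.50e-14 for RNA and 1.10e-17 for footprints of Slc1a4 (edgeR). Footprint levels were 27.9 and 25.2 in WT cells, 19.2 and 11.8 in KO1, 27.4 and 23.5 in KO2, with 41.1 and 48.9 in KO3. They followed the RNA, with changes of -0.60 ± 0.144 in KO1 (edgeR adjusted p = 0.00056) and 0.80 ± 0.111 in KO3 (edgeR adjusted p = 5.17e-08), of which the former was lost with DESeq2 and without WT replicate 1.

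Slc7a11 and Slc1a4 share a sequence near the annotated start. Promoter windows (250 bases before to 50 after the start, RefSeq, GRCm38.p6) were found for 7 of the 10 genes, not for Slc7a5, Slc1a5 and Slc38a1. On both strands they were searched for the letters TGATGCAA, a form of the amino acid response element that ATF4 and C/EBP factors are known to bind. These 8 letters occurred in 0.895% of 32851 promoter windows (1.03% of 27025 genes), and in 2 of the 7 transporter genes. In Slc7a11 they occurred 2 times, on opposite strands and beginning 66 and 47 bases before the start, and in Slc1a4 once, beginning 4 bases before it. Stretches of 30 bases around them are given 5′ to 3′ on the strand of the gene, with the matches in capitals, from the minus strand at chr3:50443651-50443680 and chr11:20332699-20332728 (GRCm38.p6):
Slc7a11: cTGATGCAAacctggagaatTTGCATCAtc
Slc1a4: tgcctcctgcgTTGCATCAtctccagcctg
A match in these letters is a description, not a shown binding site. Of the 7 genes with a window, RNA fell in KO1 for 5, beside 23.7% of all genes tested. The windows of Slc3a2, Slc38a2 and Slc6a9 among these 5 hold no TGATGCAA. Sequence outside the windows was not searched. The motif TGACNNNGC, a form of the antioxidant response element, occurred in 4 of the 7 genes (Slc38a2, Slc6a9, Slc7a1 and Slc7a6) beside 14% of all genes, and TGATGNAA, which contains TGATGCAA, in Slc7a11 and Slc1a4 beside 4.51%. CCAAT occurred in 3 of the 7 beside 41.1%, and CACGTG and TGACGTCA in 0 of the 7 beside 8.09% and 2.03%. In KO3, Slc1a4 RNA rose while that of Slc7a11 was within the WT range. Whether any of these motifs bears on the RNA changes was not tested.

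Slc38a2 encodes SNAT2, which imports glutamine, alanine and other small neutral amino acids with sodium. Its RNA level was 207 and 202 in WT cells, 154 and 145 in KO1, 214 and 192 in KO2, with 152 and 145 in KO3. KO1 and KO3 lay far below WT at nearly the same level, and KO2 on both sides of it. RNA was 0.754 times WT in both KO1 (edgeR adjusted p = 1.31e-09) and KO3 (edgeR adjusted p = 8.75e-09), with log2 changes of -0.41 ± 0.0509 and -0.41 ± 0.053, which all 12 alternatives kept. Footprint levels were 241 and 241 in WT cells, 192 and 178 in KO1, 269 and 233 in KO2, with 179 and 171 in KO3. Footprints fell in KO1 by 0.36 ± 0.0704 (edgeR adjusted p = 1.96e-05) and in KO3 by 0.40 ± 0.0626 (edgeR adjusted p = 9.00e-07). Relative to its chromosome, the KO1 footprint change was -0.16 and no longer called (edgeR adjusted p = 0.102).

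Slc38a1 encodes SNAT1, a related glutamine carrier. It had 99 and 115 RNA counts in WT cells, 103 and 91 in KO1, 118 and 112 in KO2, with 8 and 1 in KO3. The KO3 libraries stood far below WT. By level, scaled for library size, the KO1 libraries (5.72 and 5.52) lay slightly below the WT libraries (5.9 and 6.44), a change that was not called (edgeR adjusted p = 0.725). In KO3 the summed RNA count, corrected for library size, was 3.82% of WT (95% interval 1.72% to 7.39%, counting error only), and the fitted log2 change was -4.67 ± 0.373 (edgeR adjusted p = 2.42e-15). Footprint counts of Slc38a1 were 27 and 13 in WT cells, 30 and 9 in KO1, 16 and 15 in KO2, with 2 and 0 in KO3, which was 4.07% of WT (0.477% to 15.7%; edgeR adjusted p = 2.16e-07). Both calls in KO3 were kept under all 12 alternatives that could be fitted, and 3 transcripts of Slc38a1 share the count that stands for the gene.

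Slc38a1 and Slc38a2 are neighbours on chromosome 15 of GRCm38 (96571418 to 96642913 and 96687392 to 96699730, both on the minus strand). The next gene of the family, Slc38a4, which encodes the liver-enriched carrier SNAT4, follows at 96994820 to 97055956. It had 197 and 210 RNA counts in WT cells and 1 and 1 in KO3, which was 0.447% of WT (0.0539% to 1.62%; edgeR adjusted p = 2.07e-23). Slc38a2, between these 2 genes, kept 0.754 times its WT RNA. The next genes of that stretch were taken for their position. Their KO3 RNA change was -0.45 for Arid2, -0.40 for Scaf11, -2.04 for Amigo2 and -0.26 for Pced1b, beside a median of 0.00 over the other genes of the chromosome. Each was called lower by edgeR, as were 22.3% of all genes in KO3. In KO1 and KO2 the edgeR adjusted p of these 4 genes lay between 0.136 and 0.925. Eef1d itself lies on the same chromosome, from 75894205 to 75909556, outside this stretch. A link between the edited locus and these changes was not tested.

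Slc6a9 encodes GLYT1, a sodium- and chloride-coupled glycine carrier. Its RNA counts were 85 and 80 in WT cells, 14 and 12 in KO1, 86 and 61 in KO2, with 121 and 90 in KO3. The KO1 libraries alone were far from WT, and the sum was 16.3% of WT (95% interval 10.3% to 24.8%, counting error only). The log2 change in KO1 was -2.61 ± 0.308 (edgeR adjusted p = 2.36e-10) and was kept under all 12 alternatives. Footprint counts of Slc6a9 were 31 and 10 in WT cells and 2 and 3 in KO1, which was 12% of WT (3.7% to 30.4%; edgeR adjusted p = 1.23e-05). The footprint call was lost without WT replicate 1 and without KO1 replicate 1, DESeq2 gave it no adjusted p, and in KO2 and KO3 neither measure was called.

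**Figure D2:**
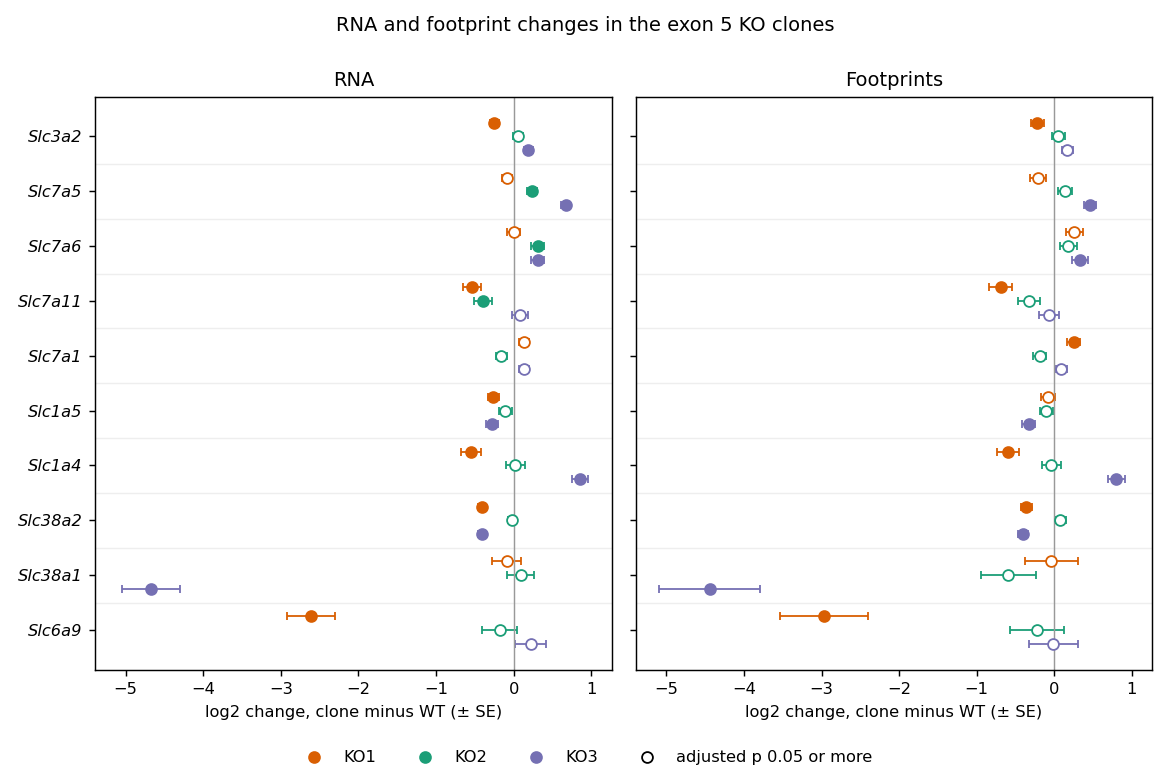
Log2 changes of RNA (left) and footprints (right) of the 10 transporter genes in KO1, KO2 and KO3 relative to WT cells, with standard errors. Filled points have an edgeR adjusted p under 0.05, open points do not. The 2 largest changes are those of Slc38a1 in KO3 (RNA -4.67) and Slc6a9 in KO1 (RNA -2.61), and the 2 panels show nearly the same pattern.

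TE, the footprint count relative to the RNA count, was tested as the interaction of line and assay. It was called by edgeR for 0 of the 10 genes in KO1, KO2 and KO3, beside 0.146%, 0.0259% and 0.121% of all genes, so that few calls would be expected among any 10 genes. With a term for the lysate that both assays share, 88, 3 and 13 genes were called in all rather than 17, 3 and 14, and again 0 of the 10. Before adjustment, edgeR gave a p under 0.05 to 0, 0 and 1 of the 10 genes, beside 865 of 11680, 541 of 11564 and 752 of 11566 genes. The 1 was Slc7a5 in KO3, with a TE change of -0.21 ± 0.102 (edgeR adjusted p = 0.767). DESeq2 also called 0 in each clone, with an adjusted p for only 4, 10 and 8 of the 10 genes. The test for clones that differ in TE was called for 0 of 10 as well, beside 1.19% of all genes. Its unadjusted edgeR p was under 0.05 for 1 of 10, beside 1266 of 11893 genes.

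The precision of the TE changes differed with abundance. Leaving aside Slc38a1 and Slc6a9, the TE changes of the other 8 genes lay between -0.16 and 0.25 in KO1, between -0.14 and 0.10 in KO2 and between -0.21 and 0.02 in KO3 on the log2 scale. The ends of their 95% intervals, from the standard errors, were -0.54 and 0.53 in KO1, -0.42 and 0.44 in KO2, with -0.48 and 0.29 in KO3. For Slc38a2 the interval had ends of -0.13 and 0.21 in KO1 and of -0.15 and 0.17 in KO3, so that the fall of its footprints was matched by that of its RNA to within these limits. For Slc38a1 in KO3 it was from -2.79 to 3.01 and for Slc6a9 in KO1 from -1.95 to 1.17, too wide to show a TE change of moderate size. Slc1a4, with opposite RNA changes in KO1 and KO3, had TE changes of -0.06 ± 0.201 and -0.06 ± 0.153.

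**Figure D3:**
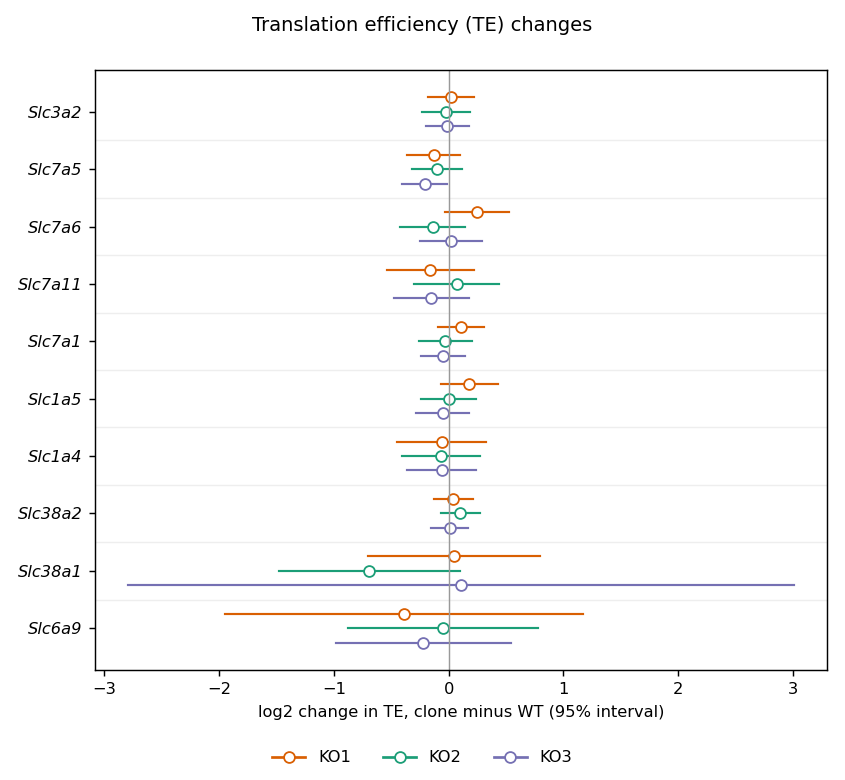
Log2 change in TE of the 10 transporter genes in each clone relative to WT cells, with 95% intervals from the standard errors. The interval of 1 of the 30 changes, Slc7a5 in KO3 (-0.41 to -0.01), does not reach 0, and those of Slc38a1 in KO3 and Slc6a9 in KO1 are the widest.

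Whole chromosomes differed between the clones and WT cells, and some transporter genes moved with theirs. In KO1, the 849 tested genes of chromosome 7 had a median RNA change of -0.44, and Slc1a5, which lies there, changed by -0.26, above 71.8% of them. In KO2, the genes of chromosome 8 had a median of 0.25, where Slc7a5 changed by 0.24 and Slc7a6 by 0.31. In KO3 the median of chromosome 8 was 0.21, with Slc7a5 at 0.67, above 91.4% of its genes, and Slc7a6 at 0.31, above 65.7%. When each chromosome was centred on its own median, an alternative chosen after seeing the data, the calls of Slc1a5 in KO1 (0.17), Slc7a5 in KO2 (-0.02) and Slc7a6 in KO2 (0.05) and KO3 (0.09) were lost in RNA, and Slc7a1 RNA in KO3 became called (0.21, edgeR adjusted p = 0.00881). The other RNA calls were kept, among them Slc7a11 (-0.63), Slc1a4 (-0.66) and Slc6a9 (-2.74) in KO1 and Slc7a5 (0.45), Slc1a4 (0.95) and Slc38a1 (-4.67) in KO3.

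**Figure D4:**
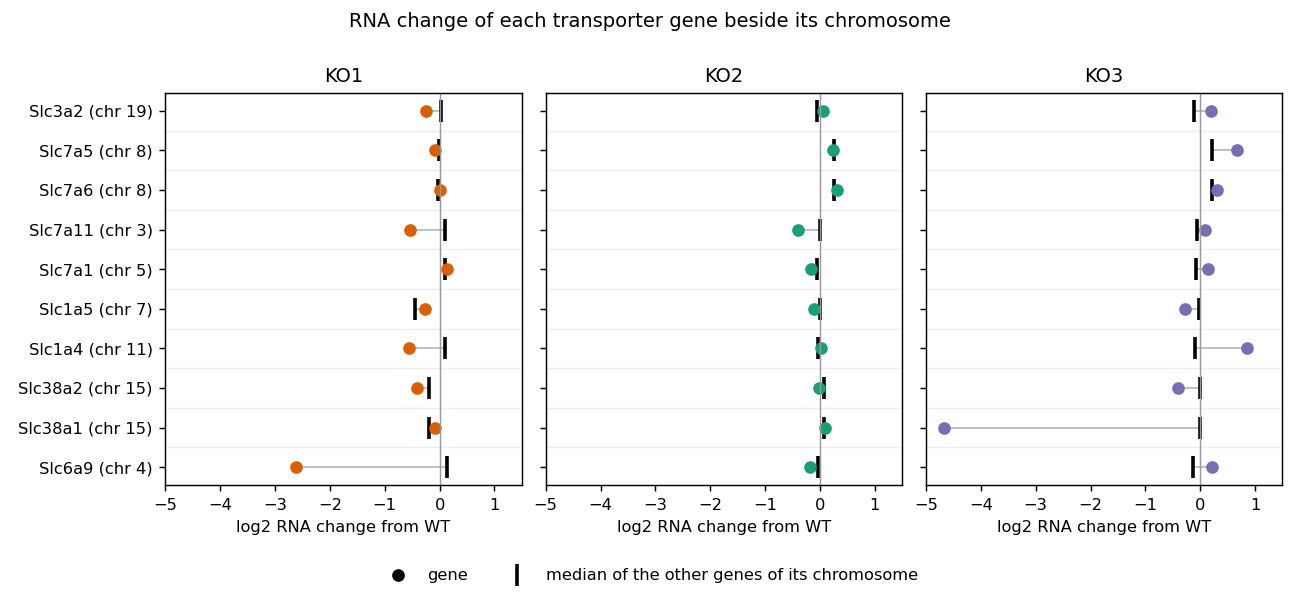
Log2 RNA change of each transporter gene (points) in KO1, KO2 and KO3, beside the median change of the other tested genes of its chromosome (bars). Slc7a5 (0.24) and Slc7a6 (0.31) in KO2 lie near the median of chromosome 8 (0.25), whereas Slc6a9 in KO1 and Slc38a1 and Slc1a4 in KO3 lie far from theirs.

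Other amino acid transporters were often too low to test. Of 31 listed genes, 30 were in the table and 15, 15 and 16 had enough RNA counts in the comparisons with KO1, KO2 and KO3. RNA rose for 2 and fell for 3 in KO1, rose for 1 and fell for 1 in KO2, and rose for 2 and fell for 6 in KO3. Of all genes, 46.7%, 19.9% and 44% were called. By direction, these shares were 22.9% higher and 23.7% lower in KO1, 10.9% and 8.97% in KO2, with 21.7% and 22.3% in KO3. Slc38a4 fell in all 3 clones, with changes of -1.31 ± 0.165 in KO1 (edgeR adjusted p = 1.56e-09) and -0.84 ± 0.152 in KO2 (edgeR adjusted p = 0.00029) beside its near loss in KO3. Slc7a9, the light chain of the kidney-type cystine carrier, had 51 and 51 RNA counts in WT cells, 7 and 1 in KO1, 54 and 65 in KO2, with 19 and 13 in KO3, with calls in KO1 (edgeR adjusted p = 3.57e-09) and KO3 (edgeR adjusted p = 1.70e-05). Slc38a7, a lysosomal glutamine carrier, rose by 0.40 ± 0.123 in KO2 and 0.41 ± 0.122 in KO3. It lies on chromosome 8, whose median RNA change was 0.25 in KO2 and 0.21 in KO3. Both calls were lost with DESeq2, without WT replicate 2 and relative to its chromosome, and the KO2 call under 5 of 12 alternatives. Slc7a2, the liver-type arginine carrier CAT2, was named after its values were seen: it had 66 and 103 RNA counts in WT cells, 89 and 66 in KO1, 68 and 50 in KO2, with 6 and 6 in KO3 (6.45% of WT, 3.27% to 11.6%; edgeR adjusted p = 6.21e-13).

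The amino acid response genes, a list of ATF4 and its known targets in amino acid synthesis and stress, went down in KO1 almost as a whole. RNA fell for 24 and rose for 0 of 26 tested genes in KO1, rose for 9 and fell for 3 in KO2, and rose for 13 and fell for 3 in KO3. The shares of all genes called were 22.9% higher and 23.7% lower in KO1, 10.9% higher and 8.97% lower in KO2, with 21.7% higher and 22.3% lower in KO3. The median RNA change was -0.69, 0.10 and 0.20, beside 0.015, -0.007 and -0.006 for all genes. Footprints fell for 17 and rose for 0 of 25 genes in KO1, and rose for 9 and fell for 3 of 26 in both KO2 and KO3. Among all genes, footprints were higher for 12.4% and lower for 14.1% in KO1, 5.83% and 5.15% in KO2, with 13.2% and 15.8% in KO3. TE was called by edgeR for 0 of them in each clone. The unadjusted edgeR p was under 0.05 for 1, 0 and 2 of them, beside 865 of 11680, 541 of 11564 and 752 of 11566 genes. DESeq2 called 0 of the 6, 26 and 15 genes to which it gave an adjusted p. The members of this list were chosen with earlier results of these data known, so that its direction is a description.

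Atf4 itself, named after its values were seen, had RNA levels of 411 and 374 in WT cells, 201 and 196 in KO1, 525 and 435 in KO2, with 441 and 434 in KO3. RNA fell by 0.94 ± 0.0509 in KO1 (edgeR adjusted p = 1.24e-23), and rose by 0.28 ± 0.0629 in KO2 (edgeR adjusted p = 0.00288) and by 0.21 ± 0.049 in KO3 (edgeR adjusted p = 0.000399). The KO2 call was lost with DESeq2 and the calls in KO2 and KO3 without WT replicate 2. Trib3, a pseudokinase induced by ATF4, fell by 2.82 ± 0.249 in KO1 and rose by 1.32 ± 0.124 in KO3. Aldh1l2, a mitochondrial folate enzyme, fell by 3.78 ± 0.329 in KO1, fell by 3.70 ± 0.312 in KO3 and rose by 1.48 ± 0.147 in KO2. Nupr1, a stress-induced chromatin protein, fell by 1.32 ± 0.331 in KO1, fell by 2.02 ± 0.359 in KO3 and rose by 1.43 ± 0.208 in KO2, each called by edgeR. The RNA of Slc1a4 and of Slc3a2 had the direction of Atf4 in KO1 and KO3. Slc38a2 fell in both of these clones, and Slc7a11 fell in KO1 and in KO2, where Atf4 rose. A link between Atf4 and these changes was not tested.

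**Figure D5:**
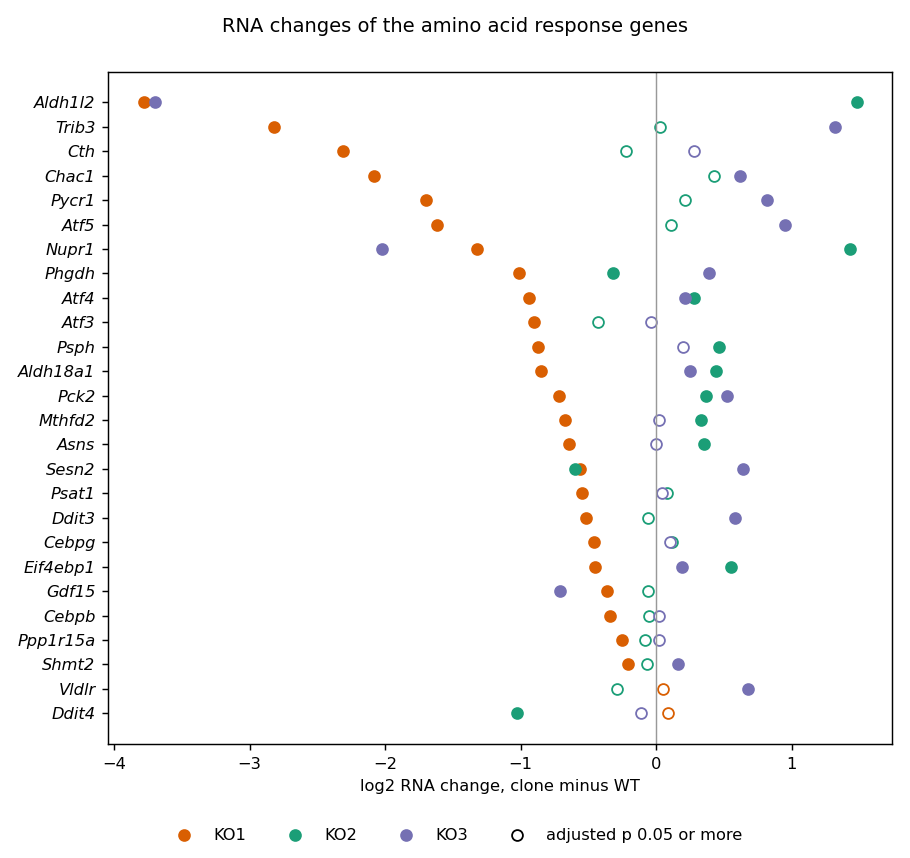
Log2 RNA changes of 26 amino acid response genes in KO1, KO2 and KO3 relative to WT cells, ordered by the change in KO1, with filled points for an edgeR adjusted p under 0.05. In KO1, 24 genes were lower, while KO2 and KO3 lie on both sides of 0.

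The NRF2 pathway genes, which respond to oxidants and include glutathione and NADPH enzymes, had no single direction. RNA rose for 7 and fell for 3 of 16 genes in KO1, rose for 1 and fell for 1 in KO2, and rose for 6 and fell for 6 in KO3. Of all genes, 22.9% were higher and 23.7% lower in KO1, 10.9% and 8.97% in KO2, with 21.7% and 22.3% in KO3. Nqo1, a quinone reductase, rose by 1.93 ± 0.37 in KO1 and fell in KO3 (-4.40 ± 0.981, edgeR adjusted p = 0.000274). Hmox1, the heme-degrading oxygenase, fell by 0.84 ± 0.153 in KO1 and fell by 0.81 ± 0.151 in KO3. Srxn1, which repairs peroxiredoxins, rose by 0.72 ± 0.155 in KO1 and by 0.47 ± 0.159 in KO3, the latter lost under 5 of 12 alternatives. Slc7a11 RNA fell in KO1, where 7 genes of this list rose, 3 fell and 6 were not called. A link between NRF2 and Slc7a11 was not tested.

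Amino acid sensing genes, which encode mTORC1, its lysosomal anchors and its regulators, had calls in each clone. RNA rose for 4 and fell for 2 of 23 genes in KO1, rose for 1 and fell for 3 in KO2, and rose for 1 and fell for 6 in KO3. Beside these, 46.7%, 19.9% and 44% of all genes were called. The shares by direction were 22.9% higher and 23.7% lower in KO1, 10.9% and 8.97% in KO2, with 21.7% and 22.3% in KO3. Akt1s1, an mTORC1 inhibitor, fell in all 3 clones, with changes of -0.27 ± 0.0762, -0.34 ± 0.0792 and -0.32 ± 0.077, but relative to its chromosome the KO1 change was 0.16, which is opposite in sign. Without WT replicate 1 its calls in KO1 and KO2 were lost. Sesn3, a regulator of mTORC1, rose by 0.61 ± 0.093 in KO1 and by 0.41 ± 0.0979 in KO2, the latter lost without WT replicate 2. Rptor, the mTORC1 scaffold, fell by 0.32 ± 0.0993 in KO2, a call lost under 5 of 12 alternatives, and rose by 0.62 ± 0.0843 in KO3. For the other transporters, the NRF2 and the sensing genes, edgeR called 0 TE changes in each clone. The unadjusted edgeR p was under 0.05 for 0 to 2 genes of each list, beside 865 of 11680, 541 of 11564 and 752 of 11566 genes in KO1, KO2 and KO3. DESeq2 also called 0, but in KO1 it gave an adjusted p to only 2 of 16 other transporters, 7 of 16 NRF2 genes and 0 of 23 sensing genes, and in KO3 to 2 of 15, 10 of 16 and 13 of 23.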

How the data were processed

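RNA-seq and Ribo-seq were performed in WT Hepa1-6 cells and 3 Eef1d exon 5 KO clones, with 2 replicates per line and assay (16 libraries, grouped by the labels). Per the methods, the authors trimmed reads with fastp (0.21.0), removed non-coding RNA reads, aligned the rest to mm10 with STAR (2.7.0a) and counted A-sites on GENCODE vM23 transcripts without the first and last 5 codons. The values deposited by the authors are whole-number counts per transcript, not normalised, for 67139 transcripts of 22392 gene symbols. Reads shared by isoforms were counted on each isoform, so the isoforms of 1 gene are not independent and library totals count such reads repeatedly. The linkers carry molecular identifiers, and whether these were collapsed is not given in the sources used here. RNA-seq is labelled as polyA RNA, whereas the protocol describes rRNA depletion. Both assays were made from 1 lysate per replicate.

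Counts were tested with the edgeR (4.0.16, R 4.3.3) quasi-likelihood test after filterByExpr and TMM scaling within each assay, on all transcripts. RNA and footprints of each clone were compared with WT cells over 4 libraries, and TE as the interaction of line and assay over 8. All 3 comparisons share the WT libraries. P-values were adjusted over all transcripts by Benjamini-Hochberg (threshold 0.05), and genes were read at the transcript with the largest total. Equality of the clones and their mean change were tested over all lines. Levels were counts per codon scaled to 1000000 over 1 transcript per gene, and TE levels needed 10 counts. Intervals of count ratios are exact, at 95%, and cover counting error only. DESeq2 (1.42.0), its size factors, other filters and transcripts, thinning to the smallest library, replicate blocks and leaving out each replicate were alternatives. Scripts were tested on simulated data. RefSeq promoter windows and GENCODE M21 positions were of GRCm38. Replicates of a number deviated together between the assays of a line, made from shared lysates (r = 0.151 to 0.359 over 2180 genes). Between libraries of different lines, which share no lysate, r ranged from -0.0806 (KO2 RNA-seq, KO1 Ribo-seq) to 0.46 (KO2 and KO3 RNA-seq). A lysate term left TE calls of the 10 genes at 0 but raised those over all genes in KO1 from 17 to 88. The transporter genes and other lists were chosen with earlier results of these data known. From each other list, the text names the 3 genes with the largest absolute mean RNA change over the clones among those called in at least 2 clones, and says so where a gene was named after its values were seen.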

Additional observations from a re-analysis of the deposited data

Results flagged for a closer look

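The change from WT cells differed between the 3 clones by the edgeR test of unequal clones (Benjamini-Hochberg adjusted over all transcripts) in 19 results. Among the heterodimer genes the adjusted p was 6.58e-07 for RNA and 7.63e-05 for footprints of Slc3a2, and 7.24e-13 and 2.60e-09 for those of Slc7a5. For Slc7a11 it was 1.15e-05 in RNA and 0.00086 in footprints, and for Slc7a6 0.00334 in RNA. Slc7a1 gave 0.000164 for RNA and 2.37e-05 for footprints, although no single clone was called for its RNA. Slc1a5 differed in footprints (0.0341), and Slc1a4 in both RNA (2.50e-14) and footprints (1.10e-17), with KO1 below and KO3 above WT cells. The adjusted p was 2.83e-08 and 1.13e-10 for RNA and footprints of Slc38a2, 4.55e-16 and 6.94e-08 for those of Slc38a1, and 1.05e-10 and 6.31e-06 for those of Slc6a9. Since 74.7% of all genes differed in RNA and 58.9% in footprints, such a difference is the rule in these clones.

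The change in TE differed between the clones for Atf4 (edgeR adjusted p = 0.00471), beside 1.19% of all genes. In KO1, KO2 and KO3 its TE values differed from WT by -0.30, -0.06 and 0.32 on the log2 scale, and each of these values alone was not called.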

How the results depend on the processing

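Counts of called transporter genes moved by over 1.5 times in 5 of the comparisons. Footprint calls in KO1 went from 6 to 1 with DESeq2, to 3 in thinned libraries, and to between 1 (without WT replicate 1) and 3 (without KO1 replicate 1). RNA calls in KO2 went from 3 to 0 with DESeq2, to 1 relative to the own chromosome, and to 1 without WT replicate 1. Footprint calls in KO2 went from 0 to 1 without WT replicate 2 and 2 without KO2 replicate 1. In the mean over the clones, RNA calls went from 6 to 3 (the highest was 7) and footprint calls from 4 to 0 without WT replicate 1. With the replicate number as a block, footprint calls in KO2 went from 0 to 1, and no other count moved by over 1.5 times. The numbers of WT and clone libraries are no known pairing, and their deviations correlated by 0.0983 to 0.366 over 2180 genes.

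Of values called in the comparisons, 3 changed sign under an alternative, all relative to the own chromosome and all then uncalled, namely RNA of Slc1a5 and Akt1s1 in KO1 and of Slc7a5 in KO2. The other changes of sign were in values that had not been called, of which footprints of Slc1a5 in KO1 became called. Relative to the own chromosome the sign changed for RNA of Slc1a5 in KO1 (0.17), Slc38a1 in KO1 (0.09), Akt1s1 in KO1 (0.16) and Slc7a5 in KO2 (-0.02), and for footprints of Slc1a5 in KO1 (0.33), Slc38a1 in KO1 (0.15), Slc7a5 in KO2 (-0.11), Slc1a4 in KO2 (0.01), Slc7a6 in KO2 (-0.08) and Slc6a9 in KO3 (0.15). Without a filter on low counts the sign changed for RNA of Slc7a6 in KO1 (-0.00). With 1 transcript per gene the sign changed for RNA of Slc7a6 in KO1 (-0.01), and for footprints of Slc6a9 in KO3 (0.01), and for TE of Slc1a5 in KO2 (0.01). With the DESeq2 test the sign changed for footprints of Slc38a1 in KO1 (0.05) and Slc6a9 in KO3 (0.06), and for TE of Slc1a5 in KO2 (0.00). In thinned libraries the sign changed for footprints of Slc7a11 in KO2 (0.11) and Slc7a11 in KO3 (0.06), and for TE of Slc7a11 in KO1 (0.20), Slc6a9 in KO1 (1.12), Slc3a2 in KO2 (0.01), Slc6a9 in KO2 (0.27), Slc7a11 in KO3 (0.04), Slc7a1 in KO3 (0.03), Slc38a1 in KO3 (-2.94), Slc6a9 in KO3 (1.02) and Slc7a6 in KO3 (-0.06). With DESeq2 size factors the sign changed for TE of Slc1a5 in KO2 (0.00). With all libraries in 1 fit the sign changed for footprints of Slc6a9 in KO3 (0.00), and for TE of Slc1a5 in KO2 (0.00). With the replicate number as a block the sign changed for footprints of Slc6a9 in KO3 (0.00). With a block for the lysate the sign changed for TE of Slc38a1 in KO3 (-0.00). The cause was not tested.

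When a replicate was left out, the values that changed sign were all ones not called in the full comparison. RNA changes in KO1 ranged from -0.07 to 0.08 for Slc7a6. RNA changes in KO2 ranged from -0.03 to 0.14 for Slc3a2, -0.22 to 0.01 for Slc1a5, -0.09 to 0.13 for Slc1a4, -0.09 to 0.05 for Slc38a2, -0.05 to 0.23 for Slc38a1 and -0.56 to 0.15 for Slc6a9. RNA changes in KO3 ranged from -0.01 to 0.17 for Slc7a11. Footprint changes in KO1 ranged from -0.35 to 0.01 for Slc1a5 and -0.23 to 0.26 for Slc38a1. Footprint changes in KO2 ranged from -0.13 to 0.19 for Slc3a2, -0.15 to 0.08 for Slc1a4, -0.02 to 0.17 for Slc38a2 and -0.57 to 0.49 for Slc6a9. Footprint changes in KO3 ranged from -0.21 to 0.15 for Slc7a11 and -0.35 to 0.71 for Slc6a9. TE changes in KO1 ranged from -0.06 to 0.12 for Slc3a2, -0.05 to 0.26 for Slc1a5, -0.63 to 0.07 for Slc1a4, -0.01 to 0.05 for Slc38a2, -0.19 to 0.41 for Slc38a1 and -1.45 to 1.26 for Slc6a9. TE changes in KO2 ranged from -0.10 to 0.20 for Slc7a11, -0.11 to 0.08 for Slc3a2, -0.20 to 0.08 for Slc7a1, -0.08 to 0.08 for Slc1a5, -0.11 to 0.02 for Slc1a4, -0.31 to 0.57 for Slc6a9 and -0.33 to 0.10 for Slc7a6. TE changes in KO3 ranged from -0.09 to 0.10 for Slc3a2, -0.11 to 0.02 for Slc7a1, -0.11 to 0.04 for Slc1a5, -0.12 to 0.04 for Slc1a4, -0.01 to 0.03 for Slc38a2, -2.07 to 0.48 for Slc38a1, -0.56 to 0.42 for Slc6a9 and -0.17 to 0.27 for Slc7a6. TE values of Slc6a9 and Slc38a1 spread the most. In thinned libraries Slc38a1 and Slc6a9 failed the filter for footprints. The shallowest Ribo-seq library, KO1 replicate 2, limits the precision of footprints and TE in KO1.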
